A study of Mus musculus with 4 samples.

Results

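A set of 10 genes of the intestinal microvillus was examined for changes in chromatin accessibility between mouse organoids exposed to BMP2 for 72 h and organoids kept at 0 h. They were taken by name and are Vil1, Espn, Eps8, Eps8l3, Ezr, Myo1a, Cdhr2, Cdhr5, Ush1c and Myo7b. Every peak whose midpoint lay in the gene body or within 50 kb of it (mm10) was counted, which gave 110 of the 41343 peaks at 72 h and 101 of the 35857 peaks at 0 h. The assay was ATAC-seq, in which the Tn5 transposase cuts open chromatin and the released fragments are sequenced. The organoids came from crypts of the proximal small intestine (jejunum) of C57BL/6J mice, and 30000 cells went into each library. At 72 h the medium no longer held CHIR99021, which turns on the Wnt pathway by blocking GSK3. It also lacked valproic acid, which blocks histone deacetylases, and the BMP antagonist Noggin, and it held 100 ng/mL recombinant BMP2. At 0 h all of these stayed in the medium and no BMP2 was added. Both groups kept epidermal growth factor and R-spondin, so the effect of BMP2 cannot be told apart from that of the withdrawn factors. Each time point is 1 library, and the 24 h and 48 h libraries of the series were not analysed here. No difference has a replicate check, and no p-value is given. The labels do not state how many mice gave the crypts.

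Microvilli are finger-like extensions of the apical membrane of enterocytes, and each holds a bundle of parallel actin filaments. Villin (Vil1) and espin (Espn) cross-link the filaments, EPS8 caps them at the tip, ezrin (Ezr) ties them to the membrane, and the motor myosin-1a (Myo1a) links the core to the membrane along its length. Neighbouring microvilli are joined at their tips by the cadherins CDHR2 and CDHR5, which are anchored by a complex of harmonin (Ush1c), the motor myosin-7b (Myo7b) and ANKS4B. The brush border matures as cells leave the crypt and move up the villus.

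A peak here is a 601 bp window around a summit called by MACS2, apart from 3 rows at 72 h and 2 at 0 h of another width, none of them at the 10 genes. The files give its position and the p-value threshold it passed, 1e-05 (lenient) or 1e-10 (strict). They give no height and no read count, so depth is unknown and a call in 1 library only is a difference in calling, not a measured fold. A peak was classed as shared if a lenient peak of the other library overlapped it by at least 1 bp. In bulk cultures, more cells with an open site and a more open site per cell cannot be told apart. The epithelial genes Epcam, Cdh1, Krt8, Cdx2 and Hnf4a had 8 to 18 peaks each at 72 h and 10 to 22 at 0 h, and the remaining epithelial marker, Vil1, is a member. Markers of other cell types were not all without peaks, and a peak within 50 kb can belong to a neighbouring gene. Of the immune markers, Cd3e had 6 peaks at 72 h and 6 at 0 h, and Ptprc had none in either library. Of the fibroblast markers, Col1a1 had 10 peaks at 72 h and 12 at 0 h, Col1a2 had 1 at 72 h and none at 0 h, and Pdgfra had 1 at 72 h and 2 at 0 h. Of the endothelial markers, Pecam1 had 6 peaks at 72 h and 2 at 0 h, and Cdh5 had none at 72 h and 1 at 0 h. Of the secretory and tuft lineages, Muc2 (goblet cells) had 5 peaks at 72 h and 1 at 0 h, and Chga (enteroendocrine cells) had 3 at 72 h and none at 0 h. Lyz1 (Paneth cells) had 2 at 72 h and 1 at 0 h, and Dclk1 (tuft cells) had 1 in each. Of 17 marker genes examined, 16 had a peak in at least 1 library. In all, 18252 protein-coding genes had a peak within 50 kb, so this count does not tell cell types apart. The part of cell composition in the results was not tested.

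The main promoters of these genes were mostly called at the strict threshold in both libraries, and the libraries differed at the starts of Espn and Eps8l3. RefSeq (GRCm38.p6) gives 10 transcription starts for 8 of the genes, and none for Eps8 and Myo7b in the table used. A strict peak lay over the start at 72 h and at 0 h for 5 genes, Vil1, Ezr, Cdhr2, Cdhr5 and Ush1c. Over all 32851 starts in that table, 27.8% were strict in both libraries and 61.8% lay under no peak in either. The shares given below for other pairs are of all starts, so they would be larger among starts with a peak. At Eps8l3 the peak over the start was strict at 72 h and lenient at 0 h, a pair seen at 1.32% of all starts. Espn, which is transcribed toward lower coordinates, has 3 starts. The innermost, at chr4:152128925, lay under a strict peak at 72 h and under none at 0 h (1.18% of all starts). The outermost, at chr4:152152389, lay under no peak at 72 h and under a lenient one at 0 h (2.15% of all starts). The middle start of Espn and the listed start of Myo1a lay under no peak in either library.

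The promoter windows below run from 250 bases before to 50 bases after the start, 5′ to 3′ on the gene's strand, from RefSeq GRCm38.p6. The Espn pair is shown because the libraries differ at both windows, Eps8l3 because its threshold differs, and Vil1 and Cdhr2 as strict promoters in both. Capitals mark matches to the searched motifs, which are listed after the sequences.
Espn innermost start, chr4:152128876-152129175, minus strand: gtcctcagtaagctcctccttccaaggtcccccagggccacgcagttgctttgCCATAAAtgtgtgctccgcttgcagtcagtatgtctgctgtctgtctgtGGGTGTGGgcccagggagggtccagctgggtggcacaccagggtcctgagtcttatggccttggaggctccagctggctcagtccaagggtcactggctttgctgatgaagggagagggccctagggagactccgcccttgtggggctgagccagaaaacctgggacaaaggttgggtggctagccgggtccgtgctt
Espn outermost start, chr4:152152340-152152639, minus strand: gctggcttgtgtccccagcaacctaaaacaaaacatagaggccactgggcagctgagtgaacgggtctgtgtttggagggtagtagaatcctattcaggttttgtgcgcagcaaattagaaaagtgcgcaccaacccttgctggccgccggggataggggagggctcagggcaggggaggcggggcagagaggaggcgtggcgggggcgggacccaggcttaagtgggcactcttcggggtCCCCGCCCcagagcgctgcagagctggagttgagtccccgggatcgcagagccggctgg
Eps8l3, chr3:107876980-107877279, plus strand: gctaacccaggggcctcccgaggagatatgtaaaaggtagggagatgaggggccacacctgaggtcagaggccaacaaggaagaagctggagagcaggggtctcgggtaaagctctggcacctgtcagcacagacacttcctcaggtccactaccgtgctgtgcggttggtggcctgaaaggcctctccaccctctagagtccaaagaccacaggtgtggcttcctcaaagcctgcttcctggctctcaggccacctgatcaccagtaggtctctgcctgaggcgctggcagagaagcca
Vil1, chr1:74409134-74409433, plus strand: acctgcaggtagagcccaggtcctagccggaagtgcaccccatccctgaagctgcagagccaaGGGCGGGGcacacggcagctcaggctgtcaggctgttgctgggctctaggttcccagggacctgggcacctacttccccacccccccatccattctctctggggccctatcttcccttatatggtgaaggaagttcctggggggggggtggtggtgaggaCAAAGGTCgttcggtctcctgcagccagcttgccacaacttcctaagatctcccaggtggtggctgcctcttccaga
Cdhr2, chr13:54701213-54701512, plus strand: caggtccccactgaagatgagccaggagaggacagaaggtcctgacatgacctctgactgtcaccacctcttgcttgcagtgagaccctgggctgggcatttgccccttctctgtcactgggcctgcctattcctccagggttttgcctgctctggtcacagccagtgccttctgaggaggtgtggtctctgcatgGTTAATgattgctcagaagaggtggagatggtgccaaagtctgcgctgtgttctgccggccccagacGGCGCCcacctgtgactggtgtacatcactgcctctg

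Motifs were searched on both strands of these windows, and a match is a description of letters, not a bound site. With position 0 at the start, the Vil1 window held CAAAGGTC, an HNF4 motif, at position -27, a motif found in 1.17% of the 32851 windows. It also held the KLF motif CCCCGCCC, read on the other strand, at -187 (17.6% of windows). The innermost Espn window held the CDX motif TTTATGG, on the other strand, at -197 (2.75%) and the KLF motif GGGTGTGG at -148 (3.56%). The outermost Espn window held only CCCCGCCC, at -9. The Cdhr2 window held the HNF1 motif GTTAAT at -54 (7.1%) and GGCGCC, a BMP SMAD motif that reads the same on both strands, at 13 (11.9%). Ezr, not printed, held CCCCGCCC at -50 and the AP-1 motif TGANTCA at -32 (7.81%). The Eps8l3 window held none of the 12 motifs, nor did the windows of Cdhr5, Ush1c and Myo1a or the middle Espn window. The remaining motifs matched in no window of the 8 genes. Over all windows, CAAAGTCC for HNF4 matched in 1.42%, AGATAA for GATA factors in 11.2%, TTTATTG for CDX in 4.60%, GTCTAGA for SMADs in 2.19%, and the TATA box as TATAAA in 13.6%.

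**Figure D1:**
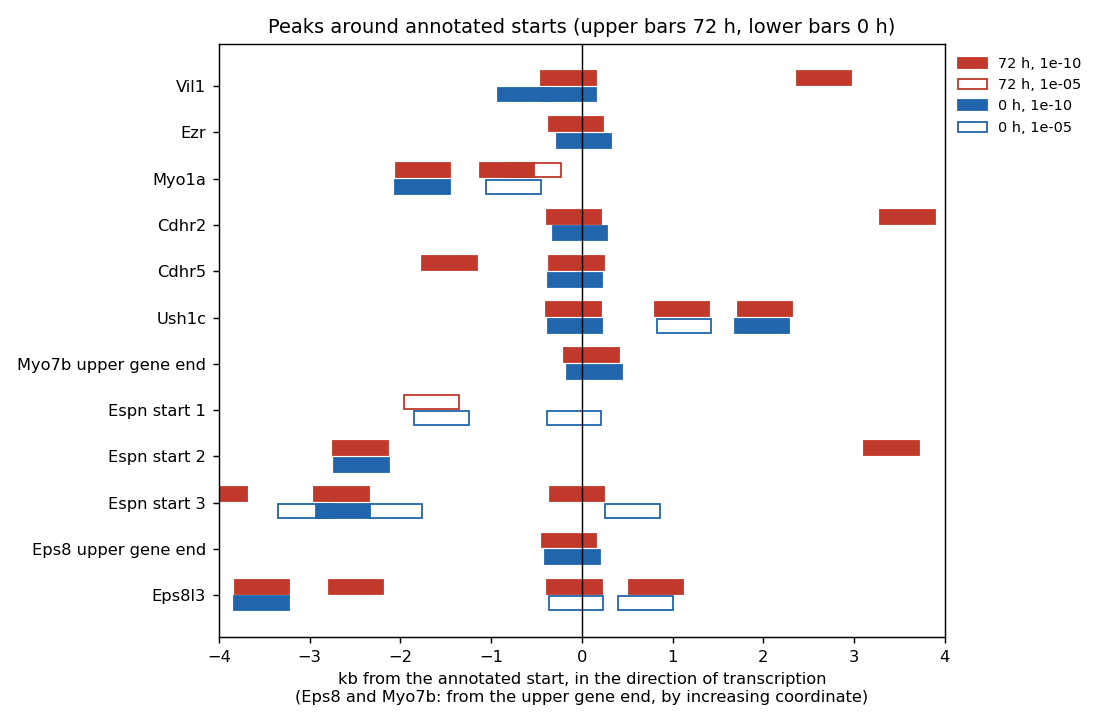
Peaks within 4 kb of each annotated start (x axis in kb along the direction of transcription), with 72 h above 0 h in each row. Filled bars mark the strict and open bars the lenient threshold. Eps8 and Myo7b have no listed start and are drawn from the upper gene end, by increasing coordinate. Espn starts 1 to 3 run from the outermost to the innermost; start 3 lies under a strict peak at 72 h and under none at 0 h, and start 1 under a lenient peak at 0 h and under none at 72 h.

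Strict peaks found in 1 library only lay mostly in the 72 h library. There were 19 at 72 h, at 8 of the 10 genes, and 4 at 0 h, at 3 genes (Cdhr2 with 2, Eps8 and Eps8l3 with 1 each). Myo1a and Ush1c had none in either library. The same rule over all 18252 protein-coding genes with a peak within 50 kb found such a 72 h peak at 33.3% of them and such a 0 h peak at 13.0%. The 10 genes lie in peak-rich surroundings, with a median of 9 strict peaks per gene at 72 h, against 3 over all genes. Among genes with 4 to 10 strict 72 h peaks, the range of the members, 49.1% had a strict 72 h-only peak. Among genes with 2 to 9 strict 0 h peaks, likewise the members' range, 16.0% had a strict 0 h-only peak. For the members the shares were 80.0% (exact Clopper-Pearson 95% interval 44.4 to 97.5) at 72 h and 30.0% (6.67 to 65.2) at 0 h, and both intervals hold the shares of genes within these ranges. The members' medians, 9 at 72 h and 6.5 at 0 h, lie in the upper part of the ranges, so the match in peak number is loose.

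Counted per peak, the members were close to the other genes. Of their 110 peaks at 72 h, 31 were in that library only, 28.2% (20.0 to 37.6), against 29.0% of all 72 h peaks within 50 kb of a protein-coding gene. Of their 101 peaks at 0 h, 19 were in that library only, 18.8% (11.7 to 27.8), against 19.7% of all. Of the strict peaks, 19 of 80 at 72 h had no 0 h peak under them, 23.8% (14.9 to 34.6), against 16.9% of all. At 0 h, 4 of 58 strict peaks had no 72 h peak under them, 6.90% (1.91 to 16.7), against 5.94%. These intervals cover counting error only. Of these 4 shares, the strict one at 72 h was farthest above its background, and its interval still holds that background.

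The shared peaks carried a second difference, in the threshold passed. Of 79 shared 72 h peaks, 12 were strict at 72 h over a site that was lenient at 0 h, 15.2% (8.10 to 25), against 11.9% over all genes. Of 82 shared 0 h peaks, 6 were strict at 0 h over a site that was lenient at 72 h, 7.32% (2.73 to 15.2), against 7.49%. With overlapping peaks merged, the members had 117 sites, of which 43 were strict in both libraries, 36.8% (28.0 to 46.2), against 36.9% of 38823 sites near any gene. Sites strict at 72 h with no 0 h peak made up 16.2% (10.1 to 24.2), against 9.84%, which lies just under that interval. Lenient 72 h sites with no 0 h peak made up 10.3% (5.41 to 17.2), against 17.1%. The summits of shared peaks lay close together. The nearest 0 h summit was a median of 30 bp from the 72 h summit, both at the 79 member peaks and over all 26779 shared 72 h peaks near genes.

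**Figure D2:**
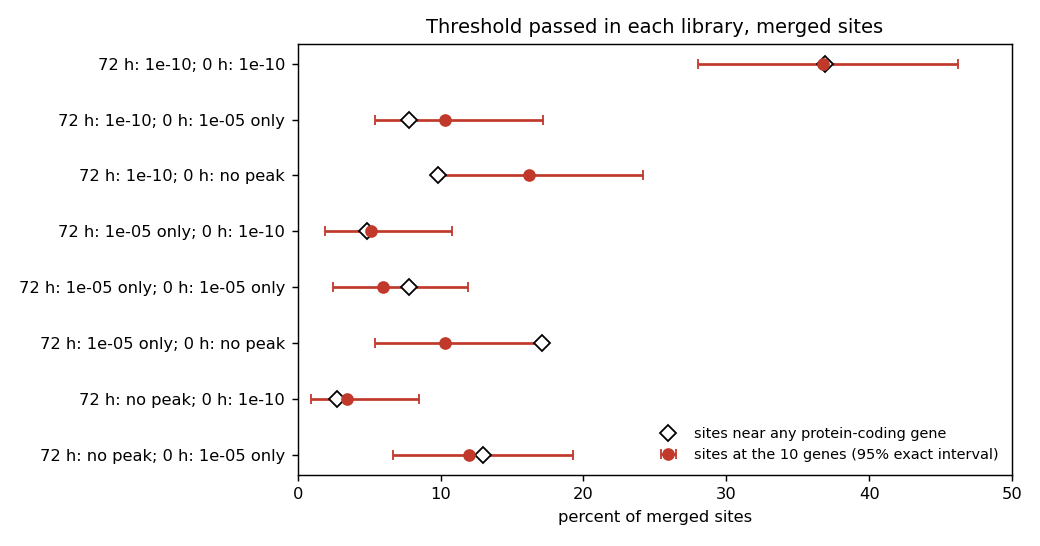
Share of merged sites (x axis, percent) by the threshold passed at 72 h and at 0 h, for the 117 sites at the 10 genes (filled points, 95% exact intervals) and the 38823 sites near any protein-coding gene (diamonds). The widest gaps are at sites with no 0 h peak. Where the 72 h peak was strict, 16.2% stands against 9.84%, a diamond just outside the interval (10.1 to 24.2). Where it was lenient, 10.3% stands against 17.1%, just inside the interval (5.41 to 17.2). The other points lie nearer to their diamonds.

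**Figure D3:**
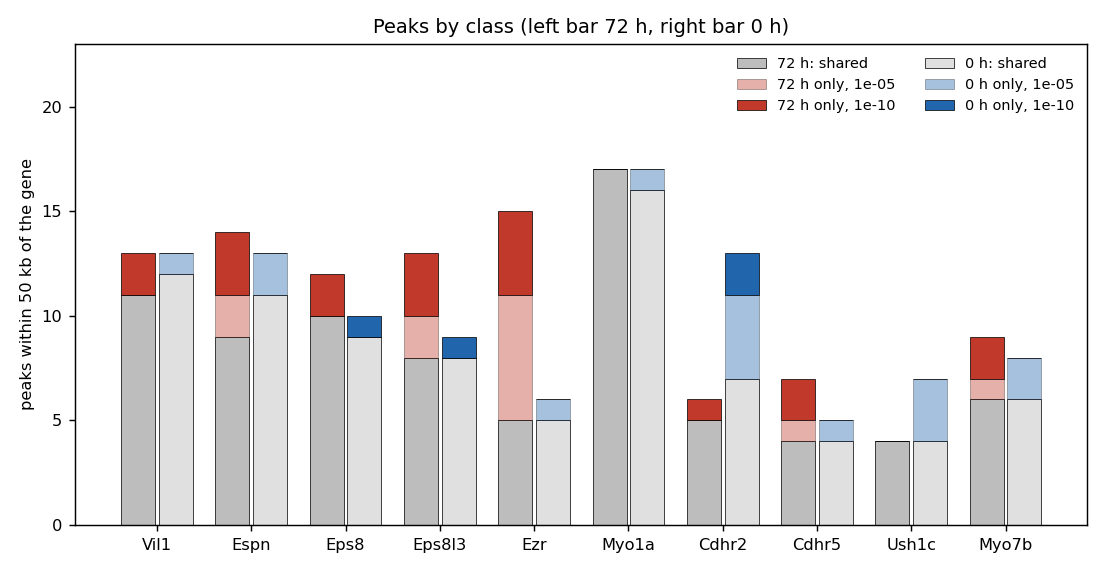
Number of peaks within 50 kb of each gene (y axis), split into shared peaks and peaks of 1 library only at the lenient or the strict threshold, with 72 h on the left and 0 h on the right of each pair. Ezr has 10 peaks at 72 h only, Cdhr2 has 6 at 0 h only, and Myo1a has none at 72 h only.

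Among the genes of the actin core, Vil1 (chr1:74409384-74435560) had 13 peaks at 72 h and 13 at 0 h. Of these, 2 strict peaks were found at 72 h only, and both lay inside the gene. The first, chr1:74411753-74412353, was centred 2669 bp after the start, and the second, chr1:74433070-74433670, 23986 bp after it. The nearest 0 h summits were 2.81 kb and 1.45 kb away. Between them a site at chr1:74414951-74415551 was strict in both libraries. Near the far end of the gene the calls ran both ways: the site at chr1:74434605-74435205 was lenient at 72 h and strict at 0 h, and the next, chr1:74435509-74436109, was strict at 72 h and lenient at 0 h. The last peak lies nearer to Usp37 than to Vil1 by its midpoint. The only 0 h-only peak was lenient and 41.0 kb from the gene, nearest to Catip.

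Espn (chr4:152120331-152152414) had 14 peaks at 72 h and 13 at 0 h, with 3 strict peaks at 72 h only and none at 0 h only. Espin occurs as isoforms of different length, and the intestinal brush border form is a short one. The strict 72 h peak over the innermost start was chr4:152128677-152129277, with its summit 52 bp from the start. A lenient 0 h-only peak, chr4:152128065-152128665, stood beside it with its summit 612 bp away, so the locus was not without a call at 0 h. The second strict 72 h-only peak inside the gene, chr4:152132615-152133215, was 0.945 kb from the nearest 0 h summit, and the third, chr4:152161487-152162087, lay 9.37 kb outside the gene, nearest to Hes2. Over the outermost start, the lenient 0 h peak was chr4:152152173-152152773, and the nearest 72 h summit was 1655 bp from that start. Sites at chr4:152131274-152131874 and chr4:152138466-152139066 inside the gene were strict in both libraries. The site at chr4:152086376-152086976, 33.7 kb from the gene and nearest to Plekhg5, was lenient at 72 h and strict at 0 h.

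Eps8 (chr6:137477245-137649397), the longest of the genes at 172.2 kb, had 12 peaks at 72 h and 10 at 0 h, most of them inside the gene (10 and 8). Its 1-library strict peaks ran in both directions and all lay inside the gene. At 72 h only these were chr6:137492518-137493118 and chr6:137550759-137551359, and at 0 h only chr6:137611812-137612412. The second of the 72 h peaks lies where the numbering of the 0 h list skips a number, and it stood 0.704 kb from a 0 h summit. Whether a 0 h row stood at that number is not known. Shared sites at chr6:137570495-137571095 and chr6:137582138-137582738 were strict at 72 h and lenient at 0 h, whereas the site at chr6:137540548-137541148 was lenient at 72 h and strict at 0 h. Below the gene and nearest to Ptpro, the site at chr6:137466187-137466787 was strict at 72 h and lenient at 0 h, and the site at chr6:137443060-137443660 lenient at 72 h and strict at 0 h. The upper end of the gene lay under a strict peak in both libraries.

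Eps8l3 (chr3:107873860-107892900), a paralogue of Eps8, had 13 peaks at 72 h and 9 at 0 h. Strict peaks numbered 9 at 72 h and 4 at 0 h. Around its 5′ part, 3 shared sites were strict at 72 h and lenient at 0 h, at chr3:107863885-107864485, at chr3:107876849-107877449 over the listed start, and at chr3:107877746-107878346 just inside. No shared site at this gene was strict at 0 h and lenient at 72 h. Strict 72 h-only peaks lay at chr3:107865206-107865806, 8.35 kb upstream of the gene body, and at chr3:107874442-107875042 inside it. A further one, chr3:107920287-107920887, is nearest to Gstm7. The strict 0 h-only peak, chr3:107844235-107844835, lay 29.3 kb from the gene body and 19.6 kb from the nearest 72 h summit. The annotated left end of the gene, 5′ of the listed start, lay under a strict peak in both libraries.

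Ezr, the membrane linker (chr17:6738131-6782780), differed most between the libraries in its number of peaks, with 15 peaks at 72 h and 6 at 0 h. Of the 15, 10 were found at 72 h only and 4 of these were strict. At least 4 strict 72 h-only peaks within 50 kb were seen at 1.07% of the 18252 genes, a share not matched for peak number. Ezr had the most such peaks of the 10 members. At least 3, as at Espn and Eps8l3, were seen at 3.31% of genes. In the other direction, at least 2 strict 0 h-only peaks, as at Cdhr2, were seen at 1.53%. Inside Ezr, the strict 72 h-only peaks were chr17:6755810-6756410 and chr17:6773454-6774054, centred 26670 bp and 9026 bp after the start, and 2 lenient ones lay between them. The other strict peaks, chr17:6728157-6728757 and chr17:6731572-6732172, lay 9.67 kb and 6.26 kb past the gene's 3′ end, and both are nearer to Sytl3. The nearest 0 h summit was 15.5 kb and 12.1 kb from them, 10.8 kb and 6.82 kb from the strict pair inside. The only 0 h-only peak, chr17:6743668-6744268, was lenient. All 5 remaining 72 h peaks were shared, strict at 72 h, and each overlapped a strict 0 h peak, including the promoter peak. For chr17:6808669-6809269 the strict 0 h overlap came from a neighbouring peak, and the 0 h peak with the nearest summit, 15 bp away, was lenient. Beyond its promoter and 1 internal site, Ezr thus shared only upstream sites, 25.6 kb and more from the gene.

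Myo1a (chr10:127703436-127720940) did not differ between the libraries in its number of peaks, with 17 in each. Every one of its 17 peaks at 72 h was shared, and the only 0 h-only peak was lenient, 43.1 kb from the gene and nearest to Rdh1. Only 3 of the 17 peaks at 72 h, and 2 of the 17 at 0 h, were nearest to Myo1a itself, since several other genes lie within the window. The left end of the gene lay under a strict peak in both libraries, chr10:127703207-127703807 at 72 h. Inside the gene, the site at chr10:127704131-127704731 was strict at 72 h and lenient at 0 h. A pair of further sites, chr10:127695633-127696233 and chr10:127677833-127678433, 7.50 kb and 25.3 kb outside the gene, were also strict at 72 h and lenient at 0 h, and both are nearest to Nemp1. The 0 h peaks that were strict over lenient 72 h peaks were chr10:127657625-127658225, nearest to Stat6, and chr10:127667585-127668185, nearest to Nab2.

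Of the adhesion cadherins, Cdhr2 (chr13:54701463-54736662) had the most 0 h-only peaks of the 10 genes, with 6 peaks in all at 72 h and 13 at 0 h. At 72 h only it had 1 peak, which was strict and inside the gene, chr13:54704751-54705351, centred 3588 bp after the start. Its nearest 0 h summit was 3.61 kb away. At 0 h only it had 6 peaks, of which 1 lenient peak lay inside the gene, chr13:54709175-54709775. The strict 0 h-only peaks were chr13:54737463-54738063, 1.10 kb past the gene's 3′ end and nearest to Gprin1, and chr13:54766252-54766852, 29.9 kb away, which overlaps the promoter window of Sncb. Of the lenient ones, 1 overlaps a promoter window of Gprin1. With the nearest gene as the criterion, Cdhr2 kept 2 peaks at 72 h and 2 at 0 h, so most of its 0 h-only peaks lie by neighbouring genes.

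Cdhr5 (chr7:141269080-141276795), the partner cadherin and the shortest gene at 7.70 kb, had 7 peaks at 72 h and 5 at 0 h, none with a midpoint inside the gene. Its promoter peak was strict in both libraries. A strict 72 h-only peak, chr7:141277946-141278546, was centred 1460 bp upstream of the start, 1.39 kb from the nearest 0 h summit. By its midpoint it lies nearer to Sct, the gene of the hormone secretin, than to Cdhr5. The second strict 72 h-only peak, chr7:141315879-141316479, is 39.4 kb away and nearest to Deaf1. The 0 h-only peak, chr7:141264976-141265576, was lenient and nearest to Irf7. All 4 shared peaks were strict in both libraries.

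The scaffold gene Ush1c (chr7:46195350-46238490) had 4 peaks at 72 h, all of them strict and shared, and 7 at 0 h, of which 2 were strict. The start and the site at chr7:46236170-46236770 were strict in both libraries. A site between these, chr7:46237088-46237688, and 1 at chr7:46168838-46169438, nearest to Abcc8, were strict at 72 h and lenient at 0 h. The 3 peaks at 0 h only were lenient, and 1 of them, chr7:46218304-46218904, lay inside the gene. Ush1c thus had fewer peaks at 72 h but more strict ones.

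The motor gene Myo7b (chr18:31959234-32036931) had 9 peaks at 72 h, 8 of them strict, and 8 at 0 h, 6 of them strict. Strict 72 h-only peaks lay inside the gene at chr18:32017363-32017963 and 17.6 kb outside it at chr18:32054195-32054795, nearest to Iws1. A lenient 0 h-only peak, chr18:32020651-32021251, stood 3.29 kb from the first of these, where the numbering of the 72 h list skips a number. The internal site at chr18:31999011-31999611 and the upper end of the gene were strict in both libraries.

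**Figure D4:**
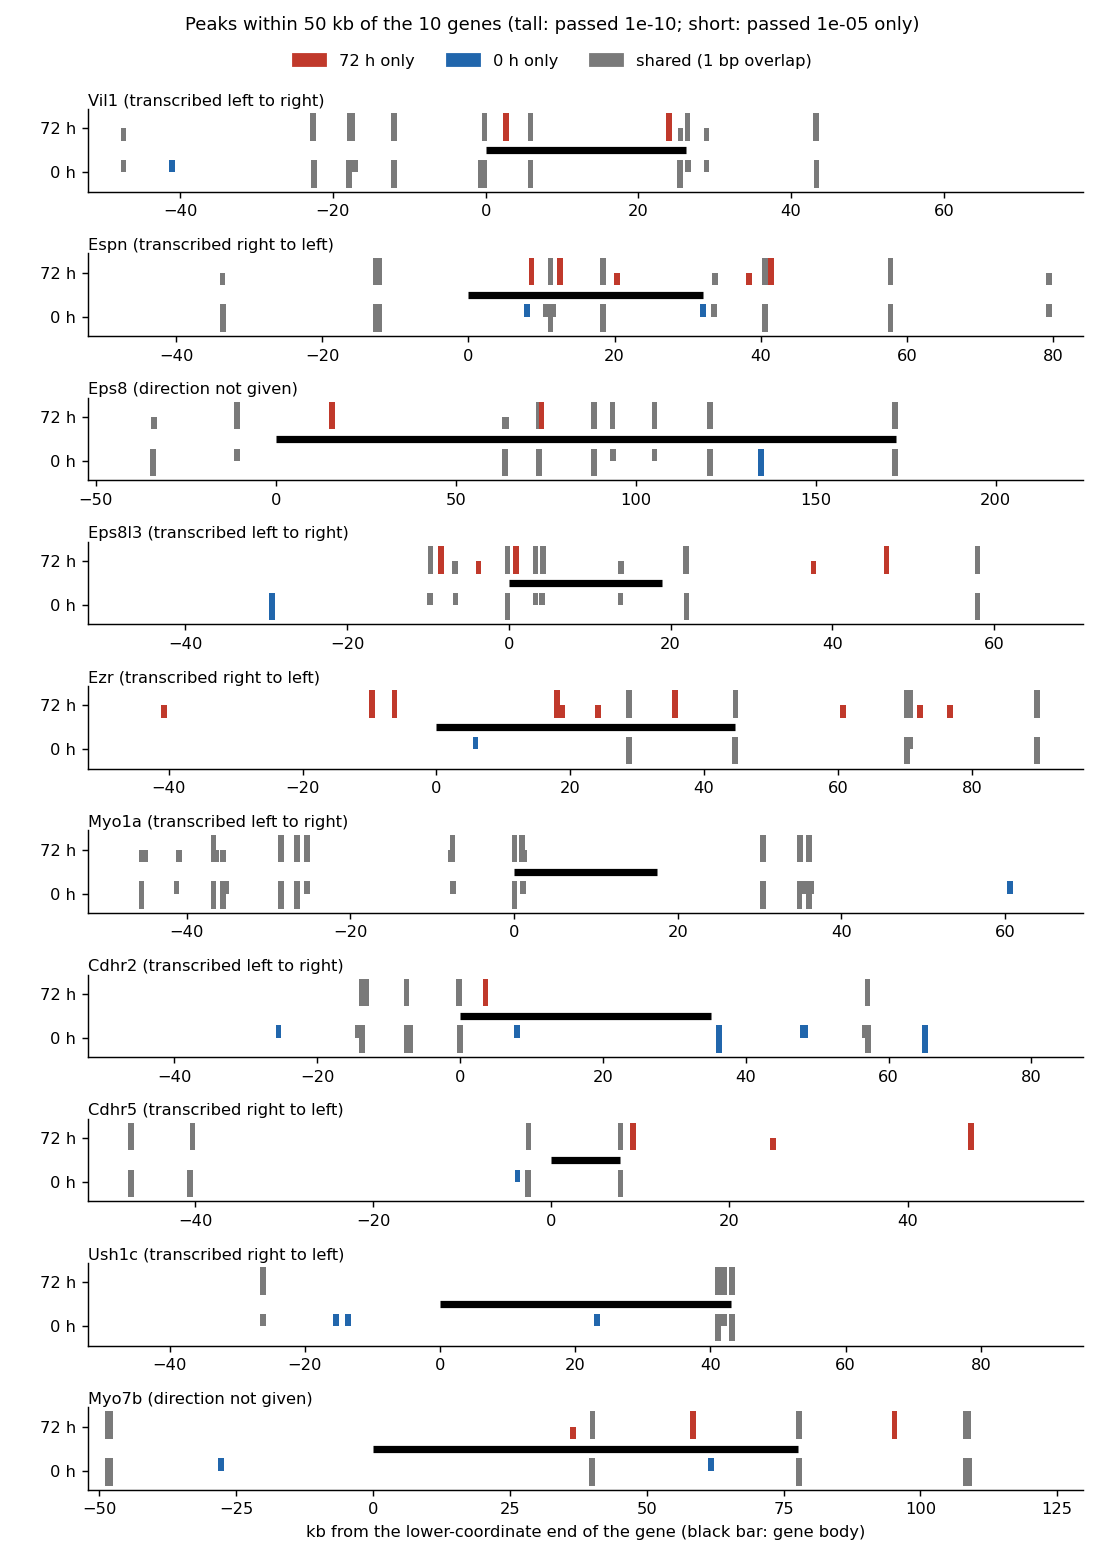
Peaks within 50 kb of each gene, drawn by distance in kb from the lower-coordinate end of the gene (x axis), with 72 h above and 0 h below the gene body (black bar), tall for strict and short for lenient calls. Peaks at 72 h only cluster inside and around Ezr, 4 of the 6 peaks at 0 h only at Cdhr2 lie past its 3′ end, and the end of each gene that holds a promoter peak is grey in both libraries except at Espn.

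The peaks of 1 library were also counted by whether their midpoint lay inside the gene. Of all peaks at the 10 genes, 37 of 110 lay inside at 72 h and 29 of 101 at 0 h. Of the 19 strict 72 h-only peaks, 11 lay inside a member gene, against 1 of the 4 strict 0 h-only peaks. At any threshold, 15 peaks inside the genes were found at 72 h only and 6 at 0 h only. For this class the inside share over all genes was not counted. Within 50 kb of any protein-coding gene the 72 h library also had more 1-library peaks, 10942 against 6485. Over all protein-coding genes, with a peak counted once for each gene in reach, 26.3% of strict 72 h-only peaks and 24.0% of strict 0 h-only peaks lay inside, against 21.8% of all peaks at 72 h and 20.9% at 0 h. These shares were not matched for gene length. Exons and introns could not be resolved with the gene table used.

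Other microvillus and brush border genes were taken from a list of 35, of which 34 had a peak. They had 329 peaks at 72 h, 100 of them at 72 h only, and 261 at 0 h, 40 of them at 0 h only. Over all peaks within 50 kb of a protein-coding gene, 29.0% at 72 h and 19.7% at 0 h were in that library only. These counts of the list are sums over its genes, so a peak in reach of several of them counts for each. A strict 72 h-only peak was found at 24 of the 35 and a strict 0 h-only one at 7, with 5 genes holding both. The shares over all genes were 33.3% and 13.0%. The 35 genes had a median of 6 strict peaks at 72 h and 4 at 0 h, and among genes with 4 to 10 strict peaks at 72 h and with 2 to 9 at 0 h the shares were 49.1% and 16.0%. These ranges are those of the 10 members, not of the 35. Of 8 genes of the actin core, 6 had strict 72 h-only peaks and none a strict 0 h-only one. Cobl, an actin nucleator of the brush border, had 4, Actb (beta-actin) had 3 and Baiap2l1, a partner of EPS8 in microvillus growth, had 2. Pls1 (plastin 1, another bundling protein of the core) had none, with 13 peaks at 72 h and 11 at 0 h.

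Over all genes, 33.3% had a strict 72 h-only peak and 13.0% a strict 0 h-only one, not matched for peak number. The groups of the list below hold few genes each, and differences between them were not tested. Of 6 linker and kinase genes, 2 had strict 72 h-only peaks and none had a strict 0 h-only one. These were Pdzk1 (an apical scaffold) with 2 and Slc9a3r1 (the ezrin-binding scaffold NHERF1) with 1. Msn (moesin, a paralogue of ezrin) had no peak in either library, and Rdx (radixin) had 2 at 72 h and 3 at 0 h, with no strict 1-library peak. Of 6 myosin genes, 5 had strict 72 h-only peaks and 3 had a strict 0 h-only one. Myo5b, a motor of apical trafficking, had 4 at 72 h only and 1 at 0 h only, and Myo1d and Myo1e each had 1 and 1. Among partners of the adhesion complex, Anks4b had 2 strict peaks at 72 h only and none at 0 h only. Calml4, a light chain of myosin-7b, had none at 72 h only and 1 at 0 h only. Mpp1, listed in the same group, had 2 at 72 h only and none at 0 h only. Of the paralogues, Eps8l2 had 3 strict 72 h-only peaks and Vill 1, while Eps8l1 had 1 at 0 h only. Apical trafficking genes had strict 72 h-only peaks at 4 of 5 and 0 h-only ones at none. The remaining 3 genes, of the filament ends and membrane links, all had strict 72 h-only peaks and 2 had a strict 0 h-only one. Clic5, a partner of ezrin, had 3 at 72 h only and 1 at 0 h only, Capzb, a subunit of the actin capping protein, had 1 and 1, and Twf1 (twinfilin) had 1 and none.

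**Figure D5:**
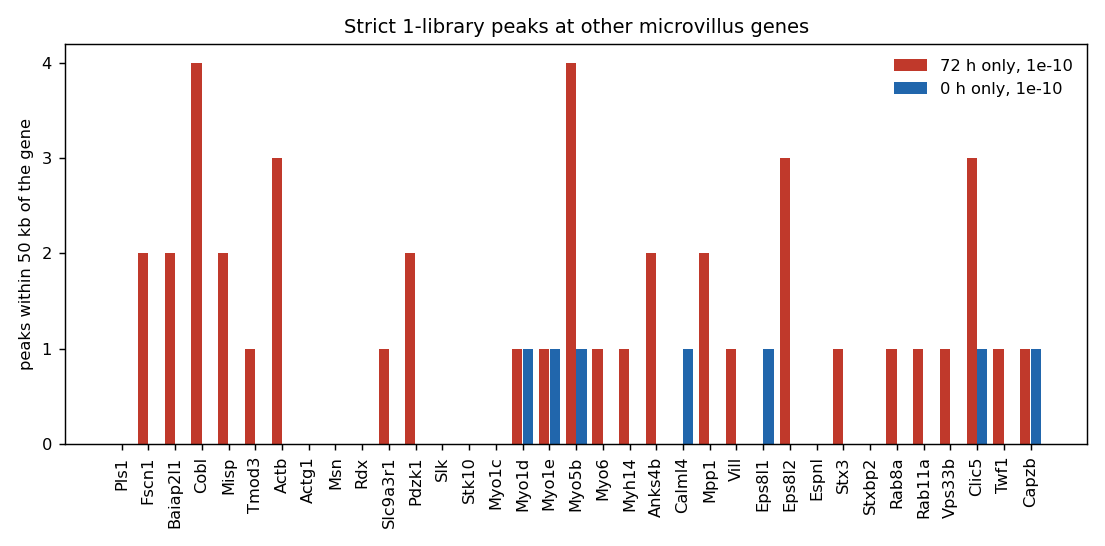
Strict peaks found in 1 library only within 50 kb of each of 35 other microvillus and brush border genes (y axis, number of peaks), with 72 h to the left of 0 h for each gene. Cobl and Myo5b have 4 at 72 h only, and no gene has more than 1 at 0 h only.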

How the data were processed

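Each library has 3 lists deposited by the authors: MACS2 peaks that passed a p-value of 1e-05, those that passed 1e-10, and regions named as enriched. A row holds a chromosome, start, end and name. The submitters' processing notes name MACS2 2.2.7.1 and bedtools 2.26.0 beside the trimmer cutadapt 1.9.1 and the aligner Bowtie2 2.4.1, on mm10. They also name Picard 2.18.27 and SAMtools 1.3.1, and deepTools 3.5.4. Settings, Tn5 shifts and duplicate removal were not given in the sources used. Peak names carry the library, so peaks were called per library.

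Positions are 1-based. Peaks were assigned to every protein-coding gene of RefSeq GRCm38.p6 (the assembly of mm10) whose body or 50 kb flank held the midpoint, so a peak can count for several genes; no peak counted for 2 of the 10 members. All 19 strict 72 h-only and 4 strict 0 h-only peaks are in the authors' enriched lists. Over the whole libraries, so are 4534 of 4535 such peaks at 72 h and 1274 of 1275 at 0 h. The enriched lists thus hold nearly the same class of peaks, and the match is no separate support. The peak numbers have gaps, 740 at 72 h and 1427 at 0 h, and whether rows stood there is not known. The overlap classing was tested on simulated peaks, none of which met more than 1 peak of the other library. Sites where several peaks overlap were thus not covered by that test. No test across samples was possible with 1 library per group. Peaks are named by a fixed rule: those at starts, strict peaks of 1 library, and shared peaks of unequal threshold. Some peaks strict in both libraries and some lenient peaks of 1 library are given beside them, chosen after their values were seen. The members and lists were chosen with earlier results of these data known. Scripts ran on SciPy 1.17.1, pandas 2.3.3 and numpy 2.4.6 under Python 3.11.15, with plots by matplotlib 3.10.9.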

Additional observations from a re-analysis of the deposited data

How the results depend on the processing

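Under all 8 alternatives, as in the report, the 10 genes had more 72 h-only than 0 h-only peaks. By the main rule the libraries lean the same way near all protein-coding genes, with 10942 72 h-only and 6485 0 h-only peaks. The direction is therefore not particular to the 10 genes. Members with a strict 72 h-only peak numbered 7 or 8 under the 6 alternatives for which they were counted, against 8. The share over all genes is known only for the main rule. It was 33.3%, and 49.1% among genes with 4 to 10 strict 72 h peaks. Whether the members stand apart from other genes under the alternatives was therefore not tested. Counts shrank with the area or the peaks counted. The 0 h-only count was 9 within 10 kb, 6 inside gene bodies, 8 among peaks nearest to the member and 4 with strict peaks only, against 19. In the last 3 of these settings the 72 h-only count was 15, 20 and 19, against 31. Shared 72 h peaks strict at 72 h only numbered 6 inside gene bodies and 7 among peaks nearest to the member, against 12. Requiring the larger part of a peak to overlap gave 37 peaks found in the 72 h library alone and 28 in the 0 h library alone, and counting a peak within 1 kb as shared gave 22 and 16. Leaving out peaks where the other list's numbering skips, a setting chosen after seeing the data, gave 30 and 18. Merged into sites, the counts were 31 and 18. No paired analysis was possible because each time point is 1 library. Depth is unknown, so a site called in 1 library only may lie just under the threshold in the other.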
